A study of Mus musculus with 8 samples.

Results

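Aggrecan, the link proteins and the enzymes and receptor of hyaluronan were followed as 10 genes, chosen by name: *Acan*, *Vcan*, *Hapln1*, *Hapln3*, *Has1*, *Has2*, *Has3*, *Cd44*, *Hyal1* and *Hyal2*. All 10 were among the 54658 gene symbols of the count table. RNA-Seq covered cultured primary articular chondrocytes, isolated from femoral head cartilage of wild-type mice aged 3 weeks, with no strain given. In 4 samples IL-1β was added at 1 ng/mL for 24 h, and 4 samples received vehicle. Both groups were grown in high-glucose DMEM with serum and antibiotics. Nothing states whether the samples of a group came from separate cultures or animals, so that p-values measure the spread between these samples, which may be technical.

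In cartilage, aggrecan monomers bind along chains of hyaluronan, and link proteins lock each monomer onto the chain. The aggregates hold water and give the tissue its resistance to compression. Hyaluronan is polymerized at the cell membrane by the HAS synthases, held at the chondrocyte surface by synthases and by the receptor CD44, and cut by hyaluronidases of the HYAL family.

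Of the 9 members tested, *Acan*, *Has2* and *Hapln1* fell with IL-1β, and *Cd44*, *Vcan* and *Has1* rose. *Acan*, which encodes aggrecan, fell to 19.3% of its vehicle level, *Has2*, a hyaluronan synthase, to 22.1%, and *Hapln1*, the cartilage link protein, to 47.2%. *Cd44*, the hyaluronan receptor, rose 2.86-fold, *Vcan* (versican) 2.27-fold and *Has1*, another synthase, 1.79-fold. The differences of *Has3*, *Hyal1* and *Hyal2* did not pass the test, and *Hapln3* was too low to pass the filter on counts. Counts were divided by library size and TMM factor to give CPM. A gene entered edgeR's quasi-likelihood test when its CPM from library size alone exceeded 1 in 4 or more samples. Changed means a Benjamini-Hochberg adjusted p-value under 0.05 over all genes tested, and DEG (differentially expressed gene) means changed by more than 1 in either direction on the log2 scale. Of the 9 members tested, 6 were changed, 3 higher and 3 lower, where 40.2% of the 14404 genes tested were changed (20.4% higher and 19.8% lower). Of the 9, 5 were DEGs, 2 higher and 3 lower, where 5.21% of all genes tested were DEGs (2.86% higher and 2.35% lower). In the same 6 members the IL-1β and vehicle samples did not overlap, as in 36.8% of all genes tested. The 9 members had a CPM above 1 in each of the 8 samples. Their median log2 fold change was -0.08, and that of all genes tested was -0.0012.

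Total counts per sample were 10992355 to 17456063, so that the detection limit of 3 counts was 0.172 to 0.273 CPM. This limit allows for counting error alone, because reads carry no molecular identifiers and PCR copies are not independent. The gene *Gm26917* took 13.2 to 14.6% of the counts of each sample. The chondrocyte label was checked with 11 marker genes, all of which passed the filter, with a summed level of 5725 to 6212 CPM with IL-1β against 15319 to 15839 CPM with vehicle. Of these, 10 were lower with IL-1β, where 19.8% of all genes tested were lower. *Prg4*, the lubricin gene of the superficial zone, was higher, as were 20.4% of all genes tested. In bulk RNA, fewer cells of a type and less RNA per cell cannot be told apart. Among markers of other cells, none of 5 endothelial and none of 5 lymphocyte genes passed the filter. Those that did were 5 of 8 fibroblast, 3 of 8 macrophage, 4 of 6 osteoblast, 1 of 4 osteoclast and 1 of 5 erythroid genes.

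**Figure D1:**
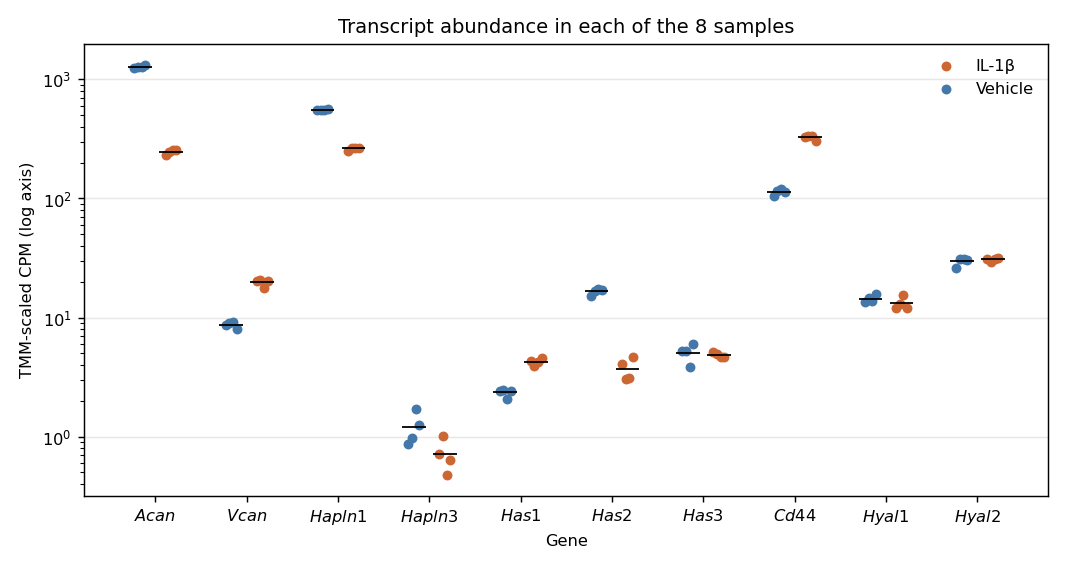
TMM-scaled CPM (log axis) of the 10 genes in each of the 8 samples, with vehicle and IL-1β samples as separate colours and a line at each group mean (n = 4). *Acan*, *Hapln1* and *Has2* lie lower with IL-1β in every sample, *Cd44*, *Vcan* and *Has1* lie higher, and the groups overlap for *Hapln3*, *Has3*, *Hyal1* and *Hyal2*.

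*Acan* (ENSMUSG00000030607.7) lies on chromosome 7 from 79053483 to 79115099 (GRCm38, plus strand). Its level was 231, 246, 254 and 258 CPM in the 4 IL-1β samples and 1257, 1273, 1262 and 1334 CPM in the vehicle samples. Every IL-1β sample was below every vehicle sample, and the spread within each group was small beside the distance between them. IL-1β samples averaged 247 ± 12.0 CPM and vehicle samples 1282 ± 35.7 CPM (SD, n = 4 each). The log2 fold change was -2.37 (SE, standard error, 0.035, edgeR adjusted p = 1.02e-28). The summed level of the chondrocyte markers above moved in the same direction, and its part in the fall of *Acan* was not tested.

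By the Euclidean distance of log2(CPM + 1) profiles, each centred on its own mean over the 8 samples, the genes most like *Acan* among 10339 other tested genes with a mean of at least 5 CPM were *Comp*, *Fgfr3*, *Smpd3*, *Penk* and *Omd*, at distances of 0.0878 to 0.300. *Comp* encodes a pentameric protein of the cartilage matrix and *Fgfr3* a receptor of fibroblast growth factors. Their log2 fold changes were between -2.64 and -2.28. With 2 groups, this likeness is mostly likeness in fold change.

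*Hapln1* (ENSMUSG00000021613.9, chromosome 13, 89539796 to 89611652, plus strand) encodes the link protein of cartilage, which binds both hyaluronan and the first globular domain of aggrecan. It had 253, 267, 266 and 267 CPM in the IL-1β samples and 558, 557, 554 and 562 CPM in the vehicle samples. The vehicle samples were nearly level, and among the IL-1β samples replicate 1 was the lowest. The log2 fold change was -1.08 (SE 0.0309, edgeR adjusted p = 8.2e-22), with a 95% confidence interval from -1.15 to -1.02 that lies just past the threshold of -1 for DEGs.

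*Vcan* (ENSMUSG00000021614.16, chromosome 13, 89655312 to 89742509, minus strand) encodes versican, a hyaluronan-binding proteoglycan of the same family as aggrecan that is more abundant in loose connective tissue and in cartilage precursors. Its level was 20.5, 20.7, 17.8 and 20.3 CPM with IL-1β against 8.65, 8.95, 9.20 and 8.02 CPM with vehicle. All IL-1β samples were higher, and replicate 3 was the lowest of them. The log2 fold change was 1.18 (SE 0.0835, edgeR adjusted p = 1.4e-12). The summed level of 8 fibroblast markers, 5 of which passed the filter, was 287 to 313 CPM with IL-1β against 409 to 426 CPM with vehicle. Of the 5, *Pdgfrb* (log2 fold change -1.06) and *Col3a1* (-0.34) were lower, *Pdgfra* (0.58) and *Cd34* (0.76) were higher like *Vcan*, and *Col1a1* was not called. Their part in the rise of *Vcan* was not tested.

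*Hapln3* (ENSMUSG00000030606.8, chromosome 7, 79115102 to 79131018, minus strand), a link protein found in many tissues, was counted 8, 14, 8 and 9 times in the IL-1β samples and 15, 17, 24 and 19 times in those given vehicle. At these counts it did not pass the filter. Without a filter, the log2 fold change was -0.75 (SE 0.315, edgeR adjusted p = 0.0851), and on the CPM scale the groups overlapped.

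Aggrecan, versican, brevican and neurocan form the lectican family, and each of their genes lies next to a gene for a link protein. *Acan* and *Hapln3* face each other with 2 bases between their annotated ends, and *Hapln1* and *Vcan* face each other across 43.7 kb with no other annotated gene between them. The neighbours *Hapln1* and *Vcan* did not move as a unit, as *Hapln1* fell while *Vcan* rose. For *Acan* and *Hapln3* this could not be compared, because *Hapln3* was too low to test. The remaining pairs belong to brain matrix, and of these *Hapln4* alone passed the filter. *Bcan* had 1 to 7 reads per sample and its neighbour *Hapln2* 0 to 2 reads, and *Ncan* had 6 to 19 reads. *Hapln4*, next to *Ncan*, had 2.86 ± 0.338 CPM with IL-1β against 2.75 ± 0.343 CPM with vehicle (log2 fold change 0.06, adjusted p = 0.813 from edgeR).

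As *Acan* fell more than *Hapln1*, the proportion of their transcripts shifted. To compare levels between genes, CPM was divided by the gene length in kilobases (RPKM). *Hapln1* per *Acan* was 1.39, 1.37, 1.33 and 1.31 in the IL-1β samples and 0.562, 0.553, 0.555 and 0.533 in the vehicle samples, as ratios of RPKM. With vehicle *Acan* exceeded *Hapln1* in every sample, and with IL-1β *Hapln1* exceeded *Acan* in every sample. On the log2 scale this ratio differed by 1.29 (two-sided exact permutation test, p = 0.0286, the lowest p possible with 4 samples per group). Because *Acan* exceeded *Hapln1* in every vehicle sample and in no IL-1β sample, the ratio of *Hapln1* to *Acan* was bound to separate. The test could give only this p and adds no evidence beyond the larger fall of *Acan*. *Vcan* per *Acan* rose from 0.00351 ± 0.000287 to 0.0415 ± 0.00411 (SD, n = 4), a difference of 3.56 on the log2 scale. Because *Vcan* was higher and *Acan* lower in every IL-1β sample, this ratio had to separate. Its exact permutation test could give only the lowest p and adds no further evidence. *Acan* remained the more abundant of the pair in every sample. After Benjamini-Hochberg adjustment over 4 such ratios and shares, p was 0.0381 for *Hapln1* per *Acan* (exact permutation test). This value depends on *Vcan* per *Acan* and the *Has2* share having the same lowest p, so it does not strengthen the result.

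**Figure D2:**
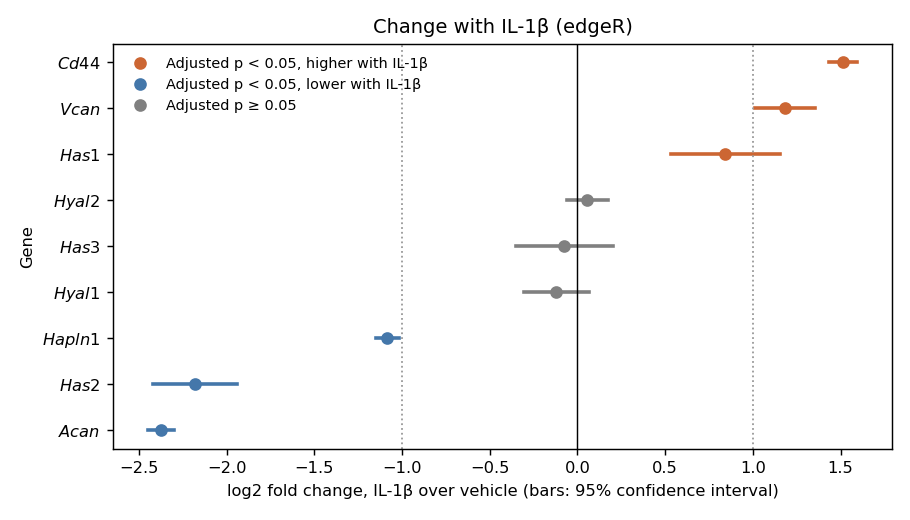
log2 fold change of IL-1β over vehicle for the 9 genes tested by edgeR, with bars for the 95% confidence interval and dotted lines at -1 and 1. *Acan* (-2.37) and *Has2* (-2.18) lie farthest to the left, *Cd44* (1.51) farthest to the right, and the intervals of *Has3*, *Hyal1* and *Hyal2* include 0.

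The HAS enzymes, which join the sugars of hyaluronan and extrude the chain, did not move together. *Has2* (ENSMUSG00000022367.7, chromosome 15, 56665627 to 56694539, minus strand), the synthase that predominates in chondrocytes, had 4.05, 3.03, 3.09 and 4.68 CPM with IL-1β against 15.3, 16.8, 17.5 and 17.2 CPM with vehicle. The groups were far apart, although the IL-1β samples rest on 42 to 66 reads each. *Has2* thus had a log2 fold change of -2.18 (SE 0.117, edgeR adjusted p = 2.62e-15). An antisense gene, *Has2os*, shares 4.30% of the exon bases of *Has2*. It had 0.511 ± 0.206 CPM with IL-1β against 1.34 ± 0.265 CPM with vehicle, below the filter. Without a filter its log2 fold change was -1.37 (edgeR adjusted p = 0.00029). The strand setting of the counting is not stated, so reads of the shared bases cannot be assigned.

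*Has1* (ENSMUSG00000003665.7, chromosome 17, 17843323 to 17855205, minus strand) had 4.33, 3.89, 4.22 and 4.54 CPM with IL-1β against 2.42, 2.48, 2.07 and 2.43 CPM with vehicle. All IL-1β samples were higher, by less than a doubling of the mean. *Has1* was changed but was not a DEG, at a log2 fold change of 0.84 (SE 0.152, edgeR adjusted p = 4.38e-05). *Has3* (ENSMUSG00000031910.14, chromosome 8, 106870242 to 106884566, plus strand) had 5.14, 4.90, 4.63 and 4.68 CPM with IL-1β against 5.19, 5.2, 3.85 and 5.98 CPM with vehicle. The groups overlapped, and the vehicle samples alone spanned the whole range. For *Has3* the log2 fold change was -0.08 (95% confidence interval -0.35 to 0.20, adjusted p = 0.706 from edgeR). *Has3* shares 5.52% of its exon bases with *Chtf8*, on the opposite strand.

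Per length, the sum of the HAS transcripts was 2.57 ± 0.245 RPKM with IL-1β and 5.25 ± 0.239 RPKM with vehicle (SD, n = 4). *Has2* made up 35.2, 30.5, 30.5 and 38.9% of this sum in the IL-1β samples and 72.8, 74.4, 79.5 and 73.3% in the vehicle samples. It held most of the synthase transcripts in every vehicle sample and in no IL-1β sample. The difference was -41.2 percentage points. With *Has2* lower and *Has1* higher in every IL-1β sample and *Has3* not called, the share was bound to separate at these levels. Its exact permutation test adds no further evidence. The share of *Has1* was 36.6 ± 1.80% with IL-1β and 9.92 ± 0.852% with vehicle, and that of *Has3* was 29.6 ± 2.89% and 15.1 ± 2.40%.

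**Figure D3:**
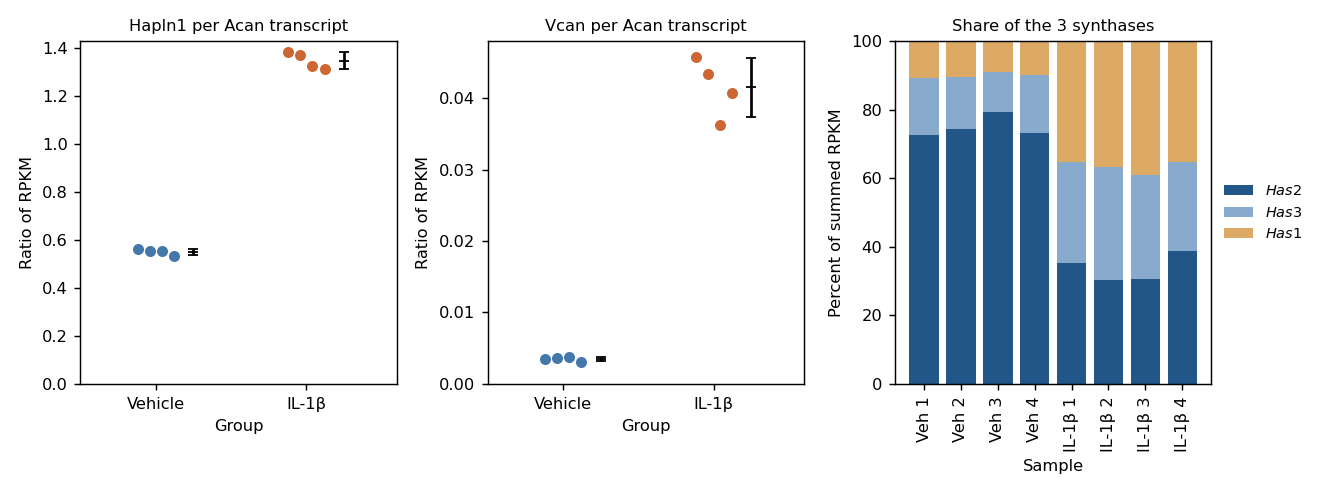
Left and centre, ratios of RPKM (linear axes from 0) for *Hapln1* per *Acan* and *Vcan* per *Acan* in each sample, with the mean and SD beside the points (n = 4). Right, the percent of the summed RPKM of *Has1*, *Has2* and *Has3* that each contributes in each sample. *Hapln1* per *Acan* is between 0.533 and 0.562 with vehicle and between 1.31 and 1.39 with IL-1β, and the *Has2* segment shrinks from 72.8 to 79.5% to 30.5 to 38.9%.

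*Cd44* (ENSMUSG00000005087.17, chromosome 2, 102811141 to 102901665, minus strand) encodes the main cell-surface receptor of hyaluronan, which anchors the pericellular matrix and takes up hyaluronan fragments. It had 326, 336, 334 and 306 CPM in the IL-1β samples and 105, 115, 121 and 114 CPM in the vehicle samples. No IL-1β sample came near the vehicle range. For *Cd44* the log2 fold change was 1.51 (SE 0.0386, edgeR adjusted p = 5.66e-23). *Cd44* is spliced into many isoforms, which counts per gene do not separate. Macrophages and other leukocytes also express it, and the summed level of 8 macrophage markers was 29.9 to 33.5 CPM with IL-1β against 14.8 to 17.0 CPM with vehicle. Of these, 3 passed the filter: *Cd14* (log2 fold change 1.86) and *Cd68* (0.67) were higher, and *Lyz2* (-0.60) was lower. The remaining 5 did not pass it: *Csf1r* had at most 19 reads in a sample (0.938 ± 0.337 CPM with IL-1β against 0.721 ± 0.307 CPM with vehicle), *Ptprc* at most 6, *Adgre1* and *C1qa* at most 3, and *C1qb* was at 0 in every sample. The part of these markers in the rise of *Cd44* was not tested. The genes most like *Cd44* by the distance used for *Acan* were *Dcn*, *Ptgs1*, *Slc11a2*, *Lox* and *Slco2a1*, at distances of 0.113 to 0.175 and with log2 fold changes between 1.48 and 1.56.

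The lysosomal hyaluronidase *Hyal1* and the membrane-anchored hyaluronidase *Hyal2*, which lie 4.15 kb apart on the plus strand of chromosome 9, did not pass the test. *Hyal1* (ENSMUSG00000010051.15, 107576927 to 107581710) had 12.0, 13.0, 15.5 and 12.1 CPM with IL-1β against 13.4, 14.6, 13.8 and 15.8 CPM with vehicle. *Hyal2* (ENSMUSG00000010047.12, 107567945 to 107572779) had 31.3, 29.4, 30.8 and 31.6 CPM with IL-1β against 26.2, 31.0, 31.0 and 30.4 CPM with vehicle. The groups overlapped for both genes. The log2 fold changes were -0.12 (95% confidence interval -0.30 to 0.06, adjusted p = 0.317 from edgeR) for *Hyal1* and 0.06 (95% confidence interval -0.06 to 0.17, adjusted p = 0.487 from edgeR) for *Hyal2*. Both intervals lie well within the threshold for DEGs. *Hyal1* made up 27.1 ± 2.59% of the summed RPKM of *Hyal1* and *Hyal2* with IL-1β and 29.8 ± 1.5% with vehicle (exact permutation test, two-sided, p = 0.114). The level of *Hyal1* is uncertain, because 51.9% of its exon bases also belong to *Naa80* or *Hyal3* on the same strand. For *Naa80* the log2 fold change was 0.04, with an adjusted p = 0.634 from edgeR, and *Hyal3*, with 6 to 18 reads per sample, did not pass the filter.

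The order of the 10 genes by RPKM changed with IL-1β. With vehicle it was *Acan* (172 RPKM), *Hapln1* (94.5), *Cd44* (16.8), *Hyal2* (9.0), *Has2* (3.94), *Hyal1* (3.82), *Has3* (0.792), *Vcan* (0.602), *Has1* (0.521) and *Hapln3* (0.342). Samples of *Has2* and *Hyal1*, of *Has3* and *Vcan*, and of *Has1* and *Hapln3* overlapped, so that the order within these pairs is not set. With IL-1β it was *Cd44* (48.0 RPKM), *Hapln1* (44.6), *Acan* (33.1), *Hyal2* (9.34), *Hyal1* (3.48), *Vcan* (1.37), *Has1* (0.939), *Has2* (0.876), *Has3* (0.758) and *Hapln3* (0.202). Here *Cd44* and *Hapln1* overlapped, as did *Has1* and *Has2*, and *Has2* and *Has3*.

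Promoter windows of 300 bases, from 250 bases before to 50 bases after the start annotated by RefSeq (GRCm38.p6), were at hand for 8 of the 10 genes. They were searched on both strands for the κB motif bound by NF-κB, through which IL-1β signals. The motif was in 8.46% of 32851 windows, and among the members in the windows of *Acan* and *Hyal2*. The windows of *Acan* (chr7:79052976-79053275, plus strand), *Hyal2* (chr9:107568913-107569212, plus strand) and *Cd44* (chr2:102901616-102901915, minus strand) are shown 5′ to 3′ because their genes fell, did not pass the test and rose, respectively. Capitals mark the κB match, which reads as a match on both strands.
Acan: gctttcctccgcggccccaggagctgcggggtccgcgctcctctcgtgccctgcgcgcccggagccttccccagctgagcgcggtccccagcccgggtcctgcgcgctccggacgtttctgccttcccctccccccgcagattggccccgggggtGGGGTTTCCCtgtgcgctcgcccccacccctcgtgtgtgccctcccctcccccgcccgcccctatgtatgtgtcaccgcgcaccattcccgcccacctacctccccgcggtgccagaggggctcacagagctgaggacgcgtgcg
Hyal2: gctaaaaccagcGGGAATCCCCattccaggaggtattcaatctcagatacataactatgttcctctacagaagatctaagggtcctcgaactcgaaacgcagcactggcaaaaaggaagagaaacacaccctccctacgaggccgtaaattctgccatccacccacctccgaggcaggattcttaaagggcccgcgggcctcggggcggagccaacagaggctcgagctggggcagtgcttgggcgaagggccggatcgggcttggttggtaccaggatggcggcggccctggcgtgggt
Cd44: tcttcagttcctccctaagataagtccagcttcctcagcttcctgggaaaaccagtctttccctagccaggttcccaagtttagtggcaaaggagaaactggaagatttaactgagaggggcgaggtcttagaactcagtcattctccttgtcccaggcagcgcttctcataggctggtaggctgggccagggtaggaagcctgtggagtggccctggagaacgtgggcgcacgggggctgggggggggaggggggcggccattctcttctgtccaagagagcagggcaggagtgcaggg
The match in the *Acan* window lies 95 to 86 bases before the start and that in the *Hyal2* window 238 to 229 bases before it. The GENCODE vM21 gene model of *Acan* starts downstream of this window, and that of *Hyal2* starts upstream of it. A match does not show that NF-κB binds there. The other 6 members with a window had no match: *Cd44*, *Vcan* and *Has1*, which rose, *Hapln1*, which fell, and *Hapln3* and *Hyal1*. Among tested genes with a window, the motif was in 12.4% of all 9921, in 18.9% of the 264 higher DEGs and in 15.6% of the 224 lower DEGs.

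Beyond the 10 genes, 47 genes of the same biology were examined in 6 lists, of which 30 passed the filter. Of these, 10 were higher and 9 were lower with IL-1β and 11 were not called, with a median log2 fold change of 0.05, where 20.4% of all genes tested were higher and 19.8% lower. Among them *Tnfaip6* and *Ptx3* were DEGs that rose and *Cemip* and *Timp3* DEGs that fell, where 2.86% of all genes tested were higher DEGs and 2.35% lower DEGs. *Stab1* was also past the thresholds, but it entered the test only through its IL-1β samples. It is counted in the 10 higher genes and in the median, although its call could hardly be other than higher.

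Among other receptors and binding proteins of hyaluronan, 7 of 13 genes passed the filter (median log2 fold change 0.49, *Stab1* included). With *Stab1*, 4 were called higher and 1 lower, where 20.4% of all genes tested were higher and 19.8% lower. Apart from *Stab1*, whose call carries no weight, the higher genes were *Tnfaip6*, *Ptx3* and *Layn*, the last named after its value was seen. *Tnfaip6*, whose product TSG-6 transfers heavy chains onto hyaluronan and crosslinks it, had 7.42 ± 0.868 CPM with IL-1β against 1.48 ± 0.182 CPM with vehicle (log2 fold change 2.31, SE 0.154, edgeR adjusted p = 3.95e-13). *Ptx3*, a pentraxin that joins TSG-6 and heavy chains in hyaluronan matrices, rose from 371 ± 7.08 to 1049 ± 42.1 CPM (log2 fold change 1.5). *Stab1*, a scavenger receptor, rested on 2 to 23 reads per sample, with 1.54 ± 0.298 CPM with IL-1β against 0.424 ± 0.321 CPM with vehicle (log2 fold change 1.87). It passed the filter through the IL-1β samples alone, since no vehicle sample exceeded 0.856 CPM, so that a call for it could hardly be other than higher and no test is given. Of the inter-α-inhibitor genes that supply the heavy chains, *Itih2* fell (log2 fold change -0.32) and *Itih5* was not called (0.20, adjusted p = 0.395 from edgeR). Both were named once values were known. *Itih1*, *Itih3* and *Itih4* did not pass the filter.

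Of 10 other genes for hyaluronan degradation, 5 passed the filter (median log2 fold change -0.03). Of the 5, 1 was higher and 2 were lower, where 20.4% of all genes tested were higher and 19.8% lower. *Cemip*, which encodes a protein needed for depolymerization of hyaluronan at the cell surface, had 1.83 ± 0.432 CPM with IL-1β against 4.69 ± 0.376 CPM with vehicle (log2 fold change -1.34, SE 0.17, edgeR adjusted p = 1.76e-07). *Cemip2*, its transmembrane relative, also fell (log2 fold change -0.25, adjusted p = 0.000204 from edgeR). *Hyal4*, *Hyal5*, *Hyal6* and *Spam1* had 0 reads in each sample, against a limit of 3 counts.

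Each of the 7 genes that make the sugar precursors passed the filter (median log2 fold change -0.0065). Of the 7, 1 was higher, 3 were lower and 3 were not called, against 20.4% higher and 19.8% lower over all genes tested. *Ugdh*, which makes UDP-glucuronic acid, fell from 248 ± 2.63 to 204 ± 1.41 CPM (log2 fold change -0.28, adjusted p = 5.23e-09 from edgeR). Named after their values were seen, *Gfpt1*, the entry enzyme of the hexosamine pathway, had a log2 fold change of -0.75 and *Uap1*, which makes UDP-N-acetylglucosamine, one of 0.42. None of the 7 was a DEG, where 5.21% of all genes tested were.

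Of the aggrecan-cleaving ADAMTS proteases and their inhibitor, 4 of 7 genes passed the filter (median log2 fold change -0.62). Of the 4, 1 was higher and 3 were lower, where 20.4% of all genes tested were higher and 19.8% lower. *Adamts5*, the principal aggrecanase of mouse cartilage, rose from 31.0 ± 2.09 to 57.2 ± 2.61 CPM (log2 fold change 0.89, SE 0.0497, edgeR adjusted p = 6.74e-15). *Adamts4*, with 3 to 10 reads per sample, did not pass the filter, and without one its log2 fold change was -0.29 (edgeR adjusted p = 0.765). *Timp3*, which encodes the inhibitor of these aggrecanases, fell from 6092 ± 218 to 2548 ± 111 CPM (log2 fold change -1.26, adjusted p = 5.44e-24 from edgeR). The decreases in the proteases were those of *Adamts1* (log2 fold change -0.70) and *Adamts9* (-0.54), named after their values were seen.

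Of 6 genes for CD44 shedding and its cytoskeletal linkers, each passed the filter (median log2 fold change 0.11). Of the 6, 3 were higher and 0 were lower, where 20.4% of all genes tested were higher and 19.8% lower. None was a DEG, where 5.21% of all genes tested were. The largest of these increases was that of *Msn*, the linker moesin (log2 fold change 0.53). The sheddases *Adam10* and *Adam17* had log2 fold changes of 0.16 and 0.30. All of them were named once values were known. Of the 4 other lectican and link protein genes, described above, *Hapln4* alone passed the filter.

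**Figure D4:**
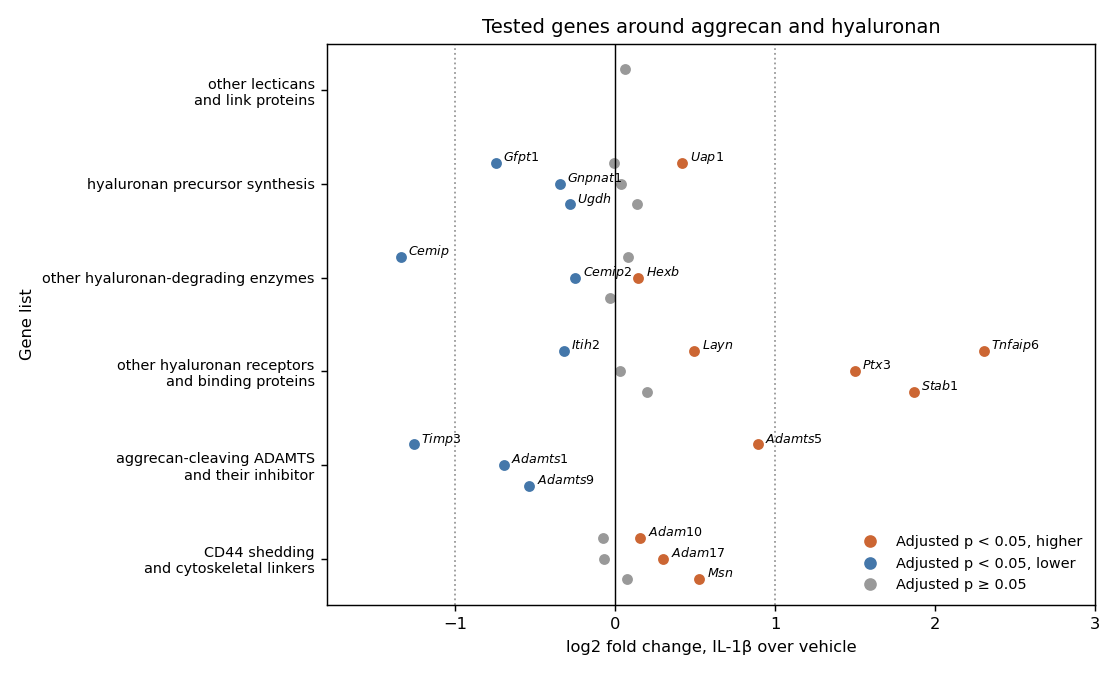
log2 fold change of IL-1β over vehicle for the 30 tested genes of the 6 lists, 1 band of points per list, with names for the genes called changed by edgeR and dotted lines at -1 and 1. *Tnfaip6* (2.31), *Stab1* (1.87) and *Ptx3* (1.5) lie beyond 1, and *Cemip* (-1.34) and *Timp3* (-1.26) lie beyond -1.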

How the data were processed

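RNA-Seq of 8 samples was analysed, 4 with IL-1β and 4 with vehicle, grouped by their labels. Per the study's methods, cutadapt trimming was followed by STAR alignment to mm10 under the GENCODE vM20 annotation and by counting with featureCounts. The submitters' notes and the methods give different STAR versions. The values deposited by the authors are whole-number counts per gene symbol. It is not stated whether they precede the study's batch correction, nor how strand and reads shared by overlapping genes were treated. RPKM used the gene length in bases from the deposited table, and the lengths of the 10 genes equal those of GENCODE vM21 (GRCm38), from which positions and overlaps were taken.

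With treatment as the only term, edgeR's quasi-likelihood test was fitted to 14404 genes (R 4.3.3 with edgeR 4.0.16 and limma 3.58.1). These had a CPM, from library size without TMM factors, above 1 in 4 or more samples. The code was tested on simulated data. Ratios and shares within a sample were compared by exact permutation tests, two-sided (scipy 1.17.1, Python 3.11.15). The study used DESeq2, which is an alternative here (1.42.0). The other alternatives were size factors by the median of ratios, total library size, no filter or a CPM above 1 in all 8 samples, the replicate number as a block, 1 RUVs factor of unwanted variation, computed in R, and each sample left out in turn. Leaving *Gm26917* out of the totals was added after seeing the data.

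The members and lists were chosen with earlier results of these data known. The named genes are the 10 members, the DEGs of the lists, *Tnfaip6*, *Ugdh*, *Adamts4*, *Adamts5*, *Cemip* and *Cemip2*, and the 5 genes nearest in profile to *Acan* and to *Cd44*. Promoter sequences are from RefSeq (GRCm38.p6), which gave windows for 8 of the 10 genes, not for *Has2* and *Has3*. Markers of chondrocytes, fibroblasts, macrophages, osteoblasts, osteoclasts, endothelial cells, lymphocytes and erythroid cells were summed per sample.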

Additional observations from a re-analysis of the deposited data

Results flagged for a closer look

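Dixon's ratio, the gap of the extreme sample divided by the range of its group, passed the 95% critical value in 4 of 30 sets of 4 values, a number to read against the 1.5 that chance gives at 1 set in 20. The sets were the 10 genes, the 4 ratios and shares, and total counts, in either group. Each time the extreme sample was the lowest. For *Vcan* it was IL-1β replicate 3, at 17.8 CPM where the rest of its group had 20.3 to 20.7 CPM. For *Hapln1* it was IL-1β replicate 1 (253 CPM, the rest 266 to 267 CPM). For *Has1* it was vehicle replicate 3 (2.07 CPM, the rest 2.42 to 2.48 CPM). For *Hyal2* it was vehicle replicate 1 (26.2 CPM, the rest 30.4 to 31.0 CPM). When samples were dropped singly, log2 fold changes ranged from 1.14 to 1.24 for *Vcan*, from -1.09 to -1.06 for *Hapln1*, from 0.79 to 0.88 for *Has1* and from -0.0036 to 0.08 for *Hyal2*.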

How the results depend on the processing

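The 6 changed members kept their direction and an adjusted p-value under 0.05, and 2 higher and 3 lower members were DEGs, under DESeq2, both other normalizations, both other filters, the replicate number as a block, the RUVs factor, the totals without *Gm26917* (added after seeing the data) and each sample left out. Over these, the log2 fold change of *Acan* lay between -2.39 and -2.34, that of *Cd44* between 1.48 and 1.55 and that of *Has2* between -2.32 and -2.08. Signs turned for uncalled members only: *Hyal2* (-0.0036 to 0.0796 with samples left out) without vehicle replicate 1, and *Has3* (-0.18 to 0.0070) without vehicle replicate 4. Over all genes, 635 DEGs were higher and 571 lower with no filter (32379 genes tested). With a CPM above 1 in all 8 samples, 266 were higher (12964 genes tested). The main fit gave 412 higher and 339 lower (14404 genes tested). With single samples left out, the log2 difference was 1.28 to 1.30 for *Hapln1* per *Acan* and 3.50 to 3.62 for *Vcan* per *Acan*, and the *Has2* share differed by -42.9 to -39.7 percentage points. The exact test cannot go below p = 0.0571 with 3 samples against 4. Deviations of same-numbered samples from their group means had r of -0.0699 to 0.0416, and 1 of 8 samples correlated best with its own number. No pairing by number was detected, but a weak one could be missed this way. Whether equal numbers share a culture or animal is not stated. With the replicate number as a block, 411 DEGs were higher and 340 lower, no call among the members changed, and 10 genes of the lists were higher and 8 lower. Over all alternatives, 8 to 11 genes of the lists were higher and 8 to 10 lower, against 10 and 9. The higher counts include *Stab1* where it was tested. *Stab1* failed the filter of all 8 samples and whenever an IL-1β sample was left out, and its log2 fold change was 1.53 to 2.39 with a vehicle sample left out. Depth limits *Hapln3*, *Adamts4* and *Hyal3*, with at most 24 reads in a sample.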

Other observations

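The marker sums of the remaining cell types were as follows. The summed level of 6 osteoblast markers was 30.1 to 37.2 CPM with IL-1β and 95.2 to 108 CPM with vehicle, with 4 of the 6 tested. That of 4 osteoclast markers was 132 to 138 CPM with IL-1β and 109 to 111 CPM with vehicle, of which *Ctsk* alone gave 134 ± 2.64 and 109 ± 0.852 CPM (SD, n = 4). The 5 erythroid markers summed to at most 1.80 CPM in a sample.

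The 8 promoter windows differed in composition. The *Acan* window had a GC content of 74.0% and 31 CpG dinucleotides, above 95.2% and 89.4% of all windows, respectively. The window of *Hapln1* had 3 CpG dinucleotides, against a median of 7 over all windows. The AP-1 motif, searched as TGACTCA or TGAGTCA on both strands, was in 5.2% of all windows and in none of the 8. The TATAAA motif was in 13.6% of all windows and, among the 8, in that of *Hapln3*, 239 to 234 bases before the start.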
